A study of Mus musculus with 8 samples.

Results

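The granins and the prohormone processing genes build the cargo and the cutting machinery of dense-core vesicles, the organelles in which neurons store peptide messengers. The set comprised Pcsk1, Pcsk2, Pcsk1n, Cpe, Pam, Scg2, Scg3, Scg5, Chga and Chgb, taken by gene symbol from the 45706 genes of the count table. All 10 were found, and all 10 were among the 17000 genes that passed the filter on low counts. The rule that picks them uses symbols alone, but the set was drawn up with earlier results of these data known.

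Peptide hormones are made as long precursors. The convertases PC1/3 (Pcsk1) and PC2 (Pcsk2) cut them at pairs of basic residues, carboxypeptidase E (Cpe) trims the basic residues left at the new ends, and peptidylglycine alpha-amidating monooxygenase (Pam) turns a terminal glycine into an amide. The protein proSAAS (Pcsk1n) inhibits PC1/3, and 7B2 (Scg5) escorts the PC2 precursor and is needed for its activity. The granins proper (Chga, Chgb, Scg2 and Scg3) are acidic proteins that aggregate with peptide cargo, and several are themselves cut into peptides. AgRP neurons of the hypothalamic arcuate nucleus, which drive feeding, depend on this route for AgRP and for neuropeptide Y, which carries a C-terminal amide.

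IP and input libraries were compared, 4 of each. Both came from random-fed mice of both sexes aged 11 to 12 weeks with the genotype Mff fl/fl, AgRP-IRES-Cre tg/wt and RpL10a-GFP fl/wt, and 3 mice were pooled per library. In these mice Cre made from the Agrp locus deletes Mff, a mitochondrial fission factor gene, and switches on a GFP-tagged ribosomal protein in the same cells. Tagged ribosomes were pulled from arcuate homogenate with antibodies to GFP (translating ribosome affinity purification). The RNA they carried gave the immunoprecipitate libraries (IP), and RNA from every cell of the dissected block gave the input libraries. All libraries carry the deletion, and mice with intact Mff are not analysed here, so the comparison of IP with input describes AgRP neurons that lack the factor and says nothing about the effect of losing it. A gene that is higher in IP may be more abundant in AgRP neurons or more heavily bound by ribosomes, which cannot be told apart, and in bulk tissue neither can fewer cells and less RNA per cell.

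Library totals lay between 39.9 M and 74.6 M estimated counts, and a member had between 515 and 55933 counts in a library. Levels are CPM, counts per M counts of the library, after TMM scaling. Mff itself lay between 112 and 132 CPM in input and between 64.0 and 71.2 CPM in IP, which does not check the deletion because reads outside the deleted exons still count. Agrp lay between 2.64 and 4.38 CPM in input and between 683 and 1083 CPM in IP. IP was higher in all 8 markers of AgRP neurons, while all 10 astrocyte and all 10 oligodendrocyte markers were lower. Not every IP library was alike. IP replicate 3 had the lowest summed AgRP marker level (3220 CPM against 3627 to 4863 CPM in the other IP libraries). It also had the highest astrocyte sum (1093 CPM against 811 to 878 CPM) and the highest pituitary sum (13.6 CPM against 4.80 to 5.66 CPM). Results that rest on this library are given with and without it.

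The processing genes did not move as a block. In IP, 6 of the 10 were higher, 1 was lower and 3 stayed above the threshold of 0.05 for the Benjamini-Hochberg adjusted p of edgeR's quasi-likelihood test. Over all tested genes 24.5% were called higher and 20.9% lower. The higher members were Pcsk1n, Pcsk1, Pam, Scg2, Scg5 and Scg3, and the lower one was Cpe. Both Pcsk1n and Pcsk1 rose by at least 2-fold, which 8.37% of tested genes did. The median log2 fold change of the 10 was 0.46, against -0.01 over all tested genes. Without IP replicate 3 the counts were 7 higher and 2 lower, against 25.9% and 24.3% of all genes tested there.

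In 5 members every IP library lay above every input library, and in 1, Cpe, every IP library lay below. The shares of all tested genes with such separation were 24.1% above and 24.0% below. Ranges overlapped in Pcsk2, Scg5, Chga and Chgb.

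**Figure D1:**
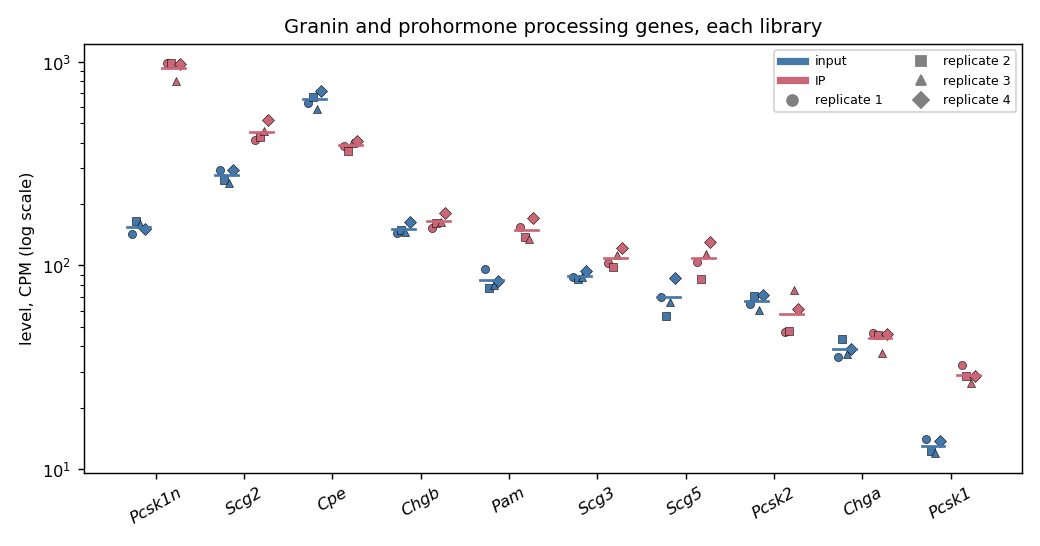
Level of each gene in every library, in CPM on a log scale, ordered by mean IP level, with points for the 4 input and 4 IP replicates and a bar at each mean. Pcsk1n stands at 807 to 980 CPM in IP against 142 to 165 CPM in input, Cpe is the one gene with all IP points below input, and Pcsk2 in IP spreads from 47.4 to 75.7 CPM.

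The largest difference belonged to Pcsk1n, the gene of proSAAS (ENSMUSG00000039278, chromosome X, 7919822 to 7924410, plus strand, GRCm38). Its level was 142, 165, 159 and 150 CPM in input replicates 1 to 4 and 980, 980, 807 and 973 CPM in IP replicates 1 to 4. The fractions were far apart, and the lowest IP library was replicate 3. Pcsk1n was 6.07-fold higher in IP, or 2.60 ± 0.08 as a log2 fold change (SE, n = 4 in each fraction, edgeR adjusted p = 2.67e-09). Over all settings tried the log2 fold change ran from 2.47 to 2.76. Among all tested genes this value stood at percentile 99.19. Eras, a Ras family gene on the opposite strand, overlaps Pcsk1n but reached no more than 0.00193% of its level in any library.

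Its target protease followed at a lower level. Pcsk1 (ENSMUSG00000021587, chromosome 13, 75089826 to 75134861, plus strand) encodes PC1/3, the convertase that makes the first cuts in many precursors. It was at 14.0, 12.3, 12.0 and 13.7 CPM in input and at 32.4, 28.6, 26.6 and 28.8 CPM in IP. Every IP library was above every input library, with a log2 fold change of 1.16 ± 0.11 (SE, n = 4, adjusted p = 8.04e-06 by edgeR). With offsets for GC content and transcript length the value was 1.80. Those offsets raised the median of all tested genes from -0.01 to 0.31, so values under them hold a shift common to all genes. Relative to the median Pcsk1 stood at 1.17 with TMM and at 1.49 with the offsets.

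The second convertase did not share this rise. Pcsk2 (ENSMUSG00000027419, chromosome 2, 143546156 to 143816285, plus strand) encodes PC2, which cuts intermediates further into short peptides. It was at 64.7, 70.7, 60.4 and 71.3 CPM in input and at 47.4, 47.7, 75.7 and 60.9 CPM in IP. IP replicate 3 was the highest of all 8 libraries, and replicates 1 and 2 were the lowest. The log2 fold change of Pcsk2 was -0.20 ± 0.14 (SE, n = 4, edgeR adjusted p = 0.272). Without IP replicate 3 it was -0.36 (adjusted p = 0.0173). Under GC and length offsets it was 0.16 (adjusted p = 0.368), but relative to the median of all tested genes it was -0.14 there and -0.19 with TMM. An antisense gene, Pcsk2os1, overlaps its exons and reached up to 13.7% of the level of Pcsk2, and the strand setting of the counting is not given in the sources used here.

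Scg5, which encodes the PC2 escort 7B2 (ENSMUSG00000023236, chromosome 2, 113776362 to 113829121, minus strand), was higher in IP. Input libraries held 70.4, 56.8, 66.0 and 86.7 CPM, and IP libraries held 104, 86.0, 114 and 130 CPM. IP replicate 2 lay just under input replicate 4, and the other IP libraries lay above all inputs. The log2 fold change was 0.63 ± 0.14 (SE, n = 4, edgeR adjusted p = 0.00393). In both fractions replicate 2 was the lowest library and replicate 4 the highest.

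Among the end-trimming and amidating enzymes the directions were opposite. Cpe (ENSMUSG00000037852, chromosome 8, 64592542 to 64693054, minus strand) was at 630, 672, 589 and 720 CPM in input and at 387, 366, 399 and 410 CPM in IP. Each IP library was below each input library, and the input level was 1.67 times the IP level. The log2 fold change of Cpe was -0.74 ± 0.07 (SE, n = 4, edgeR adjusted p = 8.62e-06). Offsets for GC content and length gave -0.47, or -0.77 relative to the median of all tested genes, against -0.73 with TMM. Markers of other cells fell beside it: the summed level of the 10 astrocyte markers was 2699 to 3371 CPM in input and 811 to 1093 CPM in IP, and that of the 10 oligodendrocyte markers was 2160 to 2722 CPM and 617 to 904 CPM. None of these markers was at 0, and their part in the result for Cpe was not tested.

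Pam (ENSMUSG00000026335, chromosome 1, 97795114 to 98095646, minus strand) rose instead. Its input levels were 96.3, 77.3, 80.6 and 83.5 CPM and its IP levels were 155, 139, 134 and 171 CPM. All IP libraries were above all inputs, with a log2 fold change of 0.83 ± 0.10 (SE, n = 4, edgeR adjusted p = 3.48e-05). A processed transcript on the same strand, B230216N24Rik, overlaps Pam and stood at up to 3.93% of its level.

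Among the granins, Scg2 and Scg3 rose, whereas Chga and Chgb did not pass the threshold. Scg2, the gene of secretogranin II and source of the peptide secretoneurin (ENSMUSG00000050711, chromosome 1, 79434669 to 79440120, minus strand), was at 295, 262, 255 and 293 CPM in input and 412, 426, 454 and 516 CPM in IP. The fractions were separate, with a log2 fold change of 0.71 ± 0.08 (SE, n = 4, edgeR adjusted p = 3.89e-05). Scg3, which encodes a granin that ties other granins to the vesicle membrane (ENSMUSG00000032181, chromosome 9, 75643189 to 75684056, minus strand), was at 87.4, 85.9, 87.8 and 94.0 CPM in input and 103, 98.5, 112 and 122 CPM in IP. All Scg3 levels in IP exceeded those in input, by a small margin, with a log2 fold change of 0.30 ± 0.08 (SE, n = 4, edgeR adjusted p = 0.00971). This call was lost with upper quartile factors (0.16, adjusted p = 0.111).

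Chga, the gene of chromogranin A (ENSMUSG00000021194, chromosome 12, 102554969 to 102565028, plus strand), was at 35.6, 43.7, 36.9 and 38.8 CPM in input and at 46.8, 45.5, 37.3 and 45.8 CPM in IP. IP replicate 3 fell within the input range and the other IP libraries lay above it. The log2 fold change of Chga was 0.18 ± 0.10 (SE, n = 4, edgeR adjusted p = 0.184), and 0.25 without IP replicate 3 (adjusted p = 0.0368). Chgb, the gene of chromogranin B (ENSMUSG00000027350, chromosome 2, 132781278 to 132795079, plus strand), was at 145, 149, 146 and 163 CPM in input and 153, 162, 163 and 182 CPM in IP. Its ranges overlapped, and the log2 fold change was 0.13 ± 0.07 (SE, n = 4, edgeR adjusted p = 0.17). Chgb was called higher with library totals alone (0.23, adjusted p = 0.0211) as well as under GC and length offsets (0.44, adjusted p = 0.000186), and it stood at -0.01 with upper quartile factors. Relative to the median of all tested genes Chgb was at 0.14 in all of these settings, so the calls moved with a shift common to all genes.

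**Figure D2:**
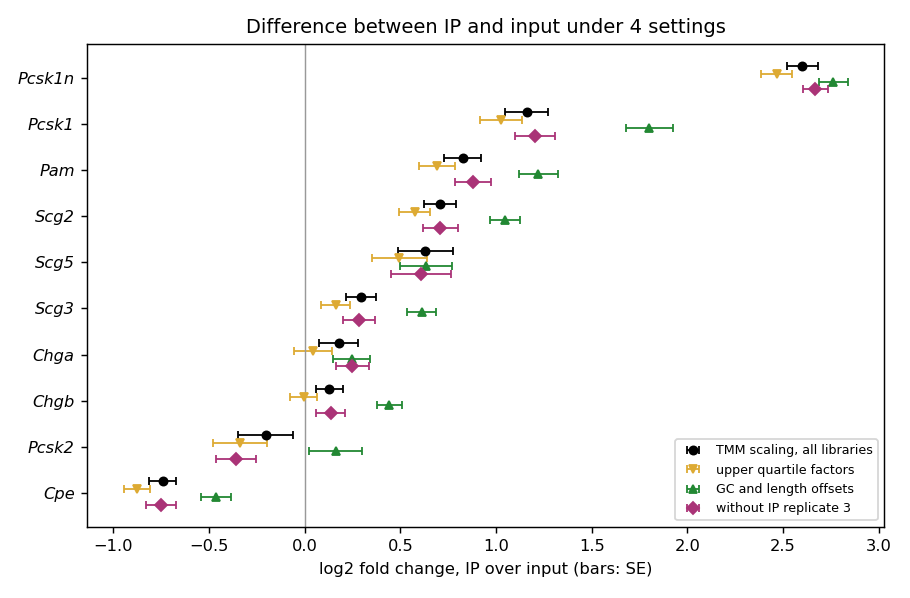
Log2 fold change of IP over input for each gene, with SE bars, under 4 settings. Pcsk1n and Pcsk1 lie to the right and Cpe to the left of 0 in all 4, whereas Pcsk2 (0.16 with GC and length offsets) and Chgb (-0.01 to 0.44) lie on either side. With the offsets the median of all tested genes is 0.31, and relative to it Pcsk2 is at -0.14.

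The spread between replicates differed by fraction. The coefficient of variation of a member's CPM was larger in IP than in input for 8 of the 10. In IP only 2 members, Pcsk2 (23.2%) and Scg5 (16.9%), exceeded 13.7%, the median over tested genes with at least 10 CPM in IP. Mean IP levels of the members ran from 29.1 to 935 CPM, and genes of matched level were not compared. In input 8 members exceeded the corresponding median of 6.43%, and the largest value was 17.9% for Scg5.

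To compare levels between genes, CPM were divided by the length of the longest protein-coding transcript in kilobases. On this per-length scale the order in input was led by Cpe at 308 ± 26.5 CPM per kb (SD, n = 4), followed by Scg2 at 110 ± 8.30 and Pcsk1n at 70.3 ± 4.56. In IP Pcsk1n led at 426 ± 39.0 CPM per kb, followed by Cpe at 184 ± 8.84 and Scg2 at 180 ± 18.4, whose ranges overlapped. Both convertases closed the order in either fraction. Pcsk2 stood at 14.1 ± 1.10 CPM per kb in input and 12.3 ± 2.84 in IP, and Pcsk1 at 2.58 ± 0.20 and 5.77 ± 0.48. Between them and the leaders lay Scg5 (57.9 in input and 89.6 in IP), Chgb (55.0 and 60.2), Scg3 (37.2 and 45.7), Pam (20.6 and 36.5) and Chga (20.6 and 23.3). Neighbours in the order whose ranges overlapped were Pcsk1n with Scg5, Scg5 with Chgb, and Chga with Pam in input, and Scg3 with Pam in IP.

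As a share of all counts the 10 genes together took 0.149%, 0.158%, 0.145% and 0.163% of the input libraries and 0.247%, 0.250%, 0.249% and 0.263% of the IP libraries. The difference of 0.0985 percentage points had an exact permutation p of 0.0286 (2-sided, n = 4 per fraction, adjusted p = 0.0327 over 8 quantities), the smallest that 70 arrangements can give. With ribosomal RNA and mitochondrial features left out of the totals the share was 0.266% ± 0.0147 in input and 0.357% ± 0.0165 in IP (SD, n = 4). The gain lay largely in Pcsk1n. Its part of the summed member counts was 9.69% ± 0.952 in input and 38.3% ± 3.05 in IP (SD, n = 4), while that of Cpe was 40.9% ± 1.41 and 16.0% ± 0.809. The parts of Scg2 (17.3% and 18.5%), Scg5 (4.37% and 4.43%) and Pam (5.30% and 6.13%) moved little. The 9 genes other than Pcsk1n summed to between 1334 and 1564 CPM in input and between 1399 and 1667 CPM in IP, ranges that overlap, a sum chosen after the values were seen.

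**Figure D3:**
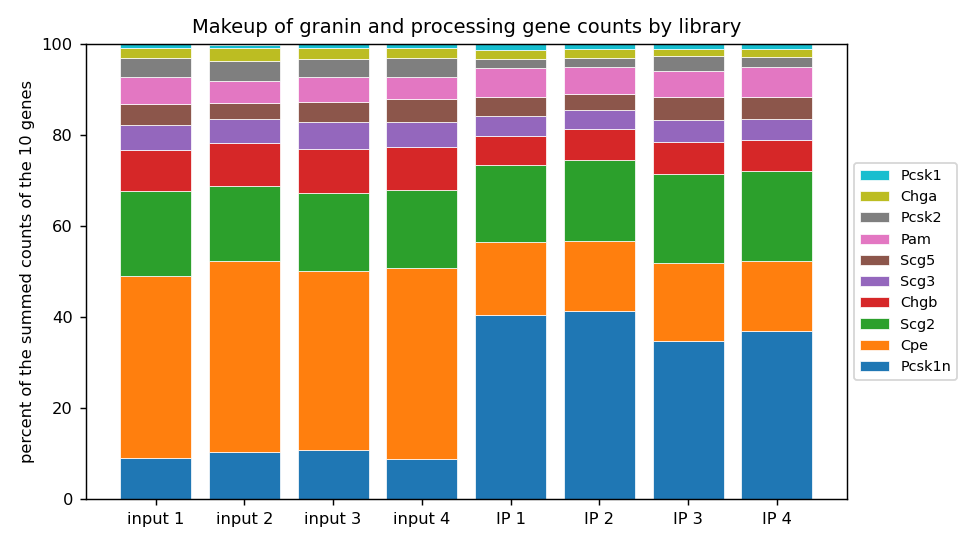
Makeup of the summed counts of the 10 genes in each library, as percent of that sum. Cpe is the widest band in the 4 inputs at 39.4% to 42.1%, and Pcsk1n in the 4 IP libraries at 34.7% to 41.2%.

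Ratios between members within a library do not depend on how libraries are scaled, and they compare partners directly. A ratio of counts also holds the ratio of transcript lengths, and a bias by length or GC content that differs between fractions would remain in it. The log2 ratio of Pcsk1 to Pcsk2 was -2.36 ± 0.13 in input and -0.97 ± 0.42 in IP (SD, n = 4), so the balance of the convertases differed 2.62-fold toward PC1/3. The ratio of the inhibitor gene Pcsk1n to Pcsk1 went from 3.57 ± 0.20 to 5.00 ± 0.10 on the log2 scale, so the inhibitor gene exceeded its target gene by 2.71-fold more in IP. For the escort Scg5 against Pcsk2 the log2 ratio went from 0.05 ± 0.26 to 0.91 ± 0.25. The ratio of Scg2 to Chgb went from 0.87 ± 0.11 to 1.45 ± 0.05, and that of Cpe to Pam from 2.95 ± 0.20 down to 1.39 ± 0.13. In each of these 5 the fractions did not overlap, and each had an exact permutation p of 0.0286 (2-sided, n = 4 per fraction, adjusted p = 0.0327), the smallest possible. Only the ratio of Scg5 to Pcsk2 missed 0.05 when a library was left out, at 0.74 without input replicate 2 (exact p = 0.0571). Computed from the fold changes with GC and length offsets, which gives no test, the difference was 0.96 in place of 1.44 for Pcsk1n to Pcsk1 and 0.47 in place of 0.86 for Scg5 to Pcsk2. It was 1.64 for Pcsk1 to Pcsk2, 0.60 for Scg2 to Chgb and -1.69 for Cpe to Pam.

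The ratio of Chga to Chgb gave no detectable difference. Its log2 value was -1.96 ± 0.14 in input and -1.91 ± 0.18 in IP (SD, n = 4, exact permutation p = 0.714), and without IP replicate 1 the difference was -0.02 in place of 0.05. With GC and length offsets it was -0.20.

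Measured against 20 pan-neuronal genes, the summed set was higher in IP, and Pcsk1n and the reference gene Snap25 carried most of that. The log2 ratio of its summed counts to those of the pan-neuronal genes was -2.90 ± 0.07 in input and -1.98 ± 0.10 in IP (SD, n = 4), a 1.89-fold difference with an exact permutation p of 0.0286 (adjusted p = 0.0327). The pan-neuronal genes themselves split, with 7 of 20 higher, 10 lower and 3 not called, against 24.5% higher and 20.9% lower over all tested genes. Gng3, a G protein subunit gene, was higher (log2 fold change 1.30 ± 0.06, SE), and so was Elavl4, an RNA-binding protein gene (0.92 ± 0.07), whereas the neurofilament gene Nefl (-1.84 ± 0.07) and the synaptotagmin gene Syt1 (-1.26 ± 0.07) were lower. Their summed level was 11530 to 12420 CPM in input and 9208 to 9872 CPM in IP. Snap25, a synaptic fusion gene chosen after its values were seen, accounted for that difference, with means of 4543 and 2252 CPM, while the other 19 genes summed to 7147 to 7649 CPM in input and 7153 to 7541 CPM in IP. Without Snap25 in the reference the set was 1.53-fold higher, and without Pcsk1n in the set 1.29-fold (exact permutation p = 0.0286 for both, n = 4). Without both it was 1.04-fold (exact permutation p = 0.429), and the fractions overlapped.

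**Figure D4:**
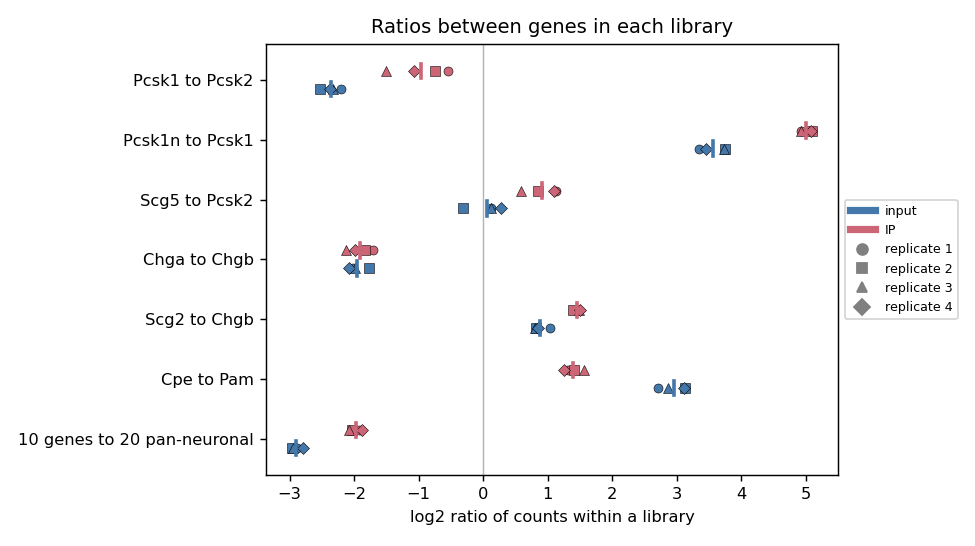
Log2 ratios of counts within each library, with 4 points per fraction and a bar at each mean. Input and IP points are apart in 6 of the 7 ratios, by -1.57 for Cpe to Pam up to 1.44 for Pcsk1n to Pcsk1, and mixed for Chga to Chgb.

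The promoters of the set show which members share a cyclic AMP response element, a motif long linked to granin and convertase genes. RefSeq starts on GRCm38.p6 were found for 9 of the 10, not for Cpe. The full motif TGACGTCA lay within 250 bases upstream of the start in 3 of the 9, against 1.77% of 27025 genes searched the same way on both strands. Its first part TGACGT, which every full motif contains, lay there in 5 of the 9, against 7.29% of genes. Those 5 stretches are shown 5′ to 3′ on the strand of the gene, with TGACGT on either strand in capitals, and the stretch next to the start of Pcsk1n, the member with the largest difference, with its GC box GGGCGG in capitals. The annotation used for lengths (GENCODE M21) starts Scg2 and Chgb further upstream, so that their stretches lie inside its gene bounds.
Pcsk1, chr13:75089768-75089797, plus strand: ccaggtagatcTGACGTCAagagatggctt
Scg2, chr1:79440076-79440105, minus strand: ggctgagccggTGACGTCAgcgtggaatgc
Chgb, chr2:132781559-132781588, plus strand: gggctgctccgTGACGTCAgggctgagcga
Chga, chr12:102554885-102554914, plus strand: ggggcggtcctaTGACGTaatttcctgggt
Scg5, chr2:113829249-113829278, minus strand: aaaggaggtaaaTGACGTtcataggggtcg
Pcsk1n, chrX:7919742-7919821, plus strand: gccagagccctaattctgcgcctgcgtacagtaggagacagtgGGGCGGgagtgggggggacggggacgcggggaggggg

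The full motif started 78 bases before the start of Pcsk1, 72 before that of Chgb and 68 before that of Scg2. Its carriers did not have 1 common difference between fractions, with log2 fold changes of 1.16 for Pcsk1, 0.71 for Scg2 and 0.13 for Chgb. Pcsk1n, at 2.60, had no TGACGT in the 250 bases, and a GC box, which 35.4% of genes hold, lay 37 bases before its start. These matches are descriptions of letters and not of factor binding, which was not measured.

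Other genes of the same route were drawn from lists. Of 28 further granins and processing enzymes 26 were tested, and 12 were higher, 3 lower and 11 not called. Their median log2 fold change was 0.22. For comparison, the main fit called 24.5% of genes higher and 20.9% lower. The number lower was 6 without IP replicate 3 or with limma-voom, 5 with DESeq2 or upper quartile factors, and 1 with GC and length offsets. The share of genes called lower in these fits was, in that order, 24.3%, 27.1%, 24.3%, 25.8% and 12.9%. Gnas, whose complex locus also makes the granin-like protein NESP55, was higher (0.59 ± 0.07, SE, n = 4), a value that does not separate its transcripts. Ece1, the endothelin-converting enzyme gene, rose from 67.3 ± 1.02 to 213 ± 11.7 CPM (1.66 ± 0.06). Qpct, whose enzyme forms the pyroglutamate cap of some peptides, was also higher (1.28 ± 0.16). So were the cathepsin L gene Ctsl (1.03 ± 0.13), the site-1 protease gene Mbtps1 (0.90 ± 0.14) and the tyrosine sulfation gene Tpst1 (0.61 ± 0.14). Pcsk4 was higher as well (1.60 ± 0.27), at low mean levels of 2.15 CPM in input and 6.53 CPM in IP. The carboxypeptidase genes Cpd (-0.60 ± 0.14) and Cpm (-1.54 ± 0.32) were lower. Cpd was not called with GC and length offsets (-0.21, edgeR adjusted p = 0.215), where the median of all tested genes was 0.31.

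Several relatives of the members did not pass the threshold. Vgf, a granin-like precursor gene, had -0.21 ± 0.29 (edgeR adjusted p = 0.593), with 23.4 ± 2.41 CPM in input and 20.4 ± 11.2 CPM in IP (SD, n = 4), and was called lower without IP replicate 4 (-0.65, adjusted p = 0.00725). The ubiquitous convertase genes Furin (-0.71 ± 0.35, adjusted p = 0.123), Pcsk6 (0.00 ± 0.31, adjusted p = 0.998) and Pcsk7 (0.07 ± 0.29, adjusted p = 0.868) had mean levels between 2.67 and 4.37 CPM in both fractions. Furin was called lower without IP replicate 3 (-0.97, adjusted p = 0.0317). The convertase gene Pcsk5 had -1.51 ± 0.67 (adjusted p = 0.0874), with 5.24 ± 1.02 CPM in input and 1.84 ± 1.29 CPM in IP. Every IP library was below every input library. Pcsk5 was called lower in 4 of 18 alternatives: with DESeq2, with limma-voom, without IP replicate 1 and without IP replicate 3. The dibasic protease gene Nrd1 had -0.11 ± 0.07 (adjusted p = 0.229). It was called higher with GC and length offsets (0.26), but lay below the median of 0.31 over all tested genes there. That fit called 38.2% of genes higher.

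Genes for amidation, copper delivery and granule acidification were mixed, with 7 of 15 higher, 3 lower and 5 not called (median 0.17). Over all tested genes the shares were 24.5% higher and 20.9% lower. The number lower was 5 with upper quartile factors and 1 with GC and length offsets. Those fits called 25.8% and 12.9% of all genes lower. Atp7a, the copper pump that loads PAM, rose from 7.71 ± 0.770 to 46.1 ± 8.69 CPM, a log2 fold change of 2.58 ± 0.15 (SE, n = 4, edgeR adjusted p = 2.26e-07), close in size to that of Pcsk1n. Cyb561, an electron carrier of the granule membrane that serves PAM, and Atox1, which hands copper to the pump, were higher by 1.15 ± 0.10 and 0.86 ± 0.10, and both were chosen after their values were seen. Among proton pump subunits Atp6v0d1 was higher (0.73 ± 0.06) and Atp6v1a lower (-0.40 ± 0.07). With GC and length offsets Atp6v1a was at 0.00, below the median of 0.31 over all tested genes. Kalrn, which encodes an exchange factor that binds PAM, was lower (-0.84 ± 0.13).

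Of 23 genes for dense-core vesicle formation 11 were higher, 4 lower and 8 not called (median 0.30). With GC and length offsets 17 were higher and 0 lower, in a fit that called 38.2% of all genes higher and 12.9% lower, against 24.5% and 20.9% with TMM. Ptprn, a membrane protein gene of the vesicle, rose from 128 ± 7.15 to 382 ± 50.6 CPM (1.58 ± 0.10, SE, n = 4), and its relative Ptprn2, chosen after its value was seen, was higher by 0.88 ± 0.09. Rab3a, which encodes a vesicle GTPase, was higher by 0.63 ± 0.06. The lower genes included the release factor gene Cadps (-0.51 ± 0.10) and the tethering gene Ccdc132 (-0.54 ± 0.10). With GC and length offsets they stood at -0.14 and -0.03, neither called. Both remained below the median of all tested genes, 0.31 in that fit.

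Most tested peptide precursor genes were lower in IP, in a list that includes precursors of neurons other than AgRP neurons. Of 27 tested 4 were higher and 18 lower, with a median of -1.43, against 24.5% and 20.9% of all tested genes. Npy (7.14 ± 0.18) and Agrp (7.98 ± 0.20) were the largest increases, whereas Pmch (-1.86 ± 0.14) and Hcrt (-1.89 ± 0.15), which encode melanin-concentrating hormone and orexin of lateral hypothalamic neurons, were lower. Mean input levels were 295 CPM for Pmch and 87.7 CPM for Hcrt, against 13.8 CPM for Npy and 3.35 CPM for Agrp. How far the dissected block reached beyond the arcuate nucleus was not tested. Summed over the list, precursor levels were 862 to 1038 CPM in input and 2858 to 4156 CPM in IP. Agrp and Npy made up that difference, since the other 28 listed genes summed to 846 to 1020 CPM in input and 507 to 667 CPM in IP. Not all of these 28 were lower: Sst, chosen after its value was seen, rose from 42.2 ± 5.82 to 230 ± 49.8 CPM (2.45 ± 0.16).

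**Figure D5:**
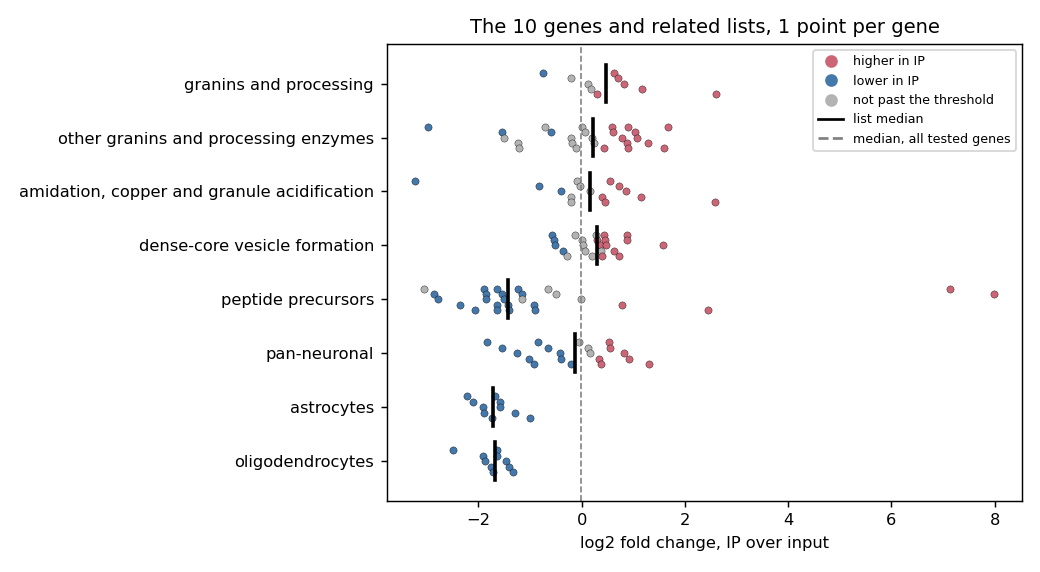
Log2 fold change of IP over input for the 10 genes and 7 related lists, 1 point per gene, coloured by call, with a bar at each list median and a dashed line at the median of all tested genes (-0.01). The 10 genes have a median of 0.46, peptide precursors -1.43, astrocyte markers -1.71 and oligodendrocyte markers -1.69.

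Genes with a profile close to that of a member were sought over the 8 libraries among 8145 tested genes of at least 10 CPM. Likeness was the root mean square difference of log2 CPM after centring each gene. Closest to Pcsk1n were the potassium channel gene Kcnk2 (0.101, log2 fold change 2.48 ± 0.08, SE), the G protein regulator gene Rgs2 (0.139, 2.41 ± 0.07) and Tmem176b (0.141, 2.47 ± 0.11). Closest to Cpe were the phosphatase gene Ptpn4 (0.0478, -0.74 ± 0.08), the glycolytic gene Pfkp (0.0629, -0.80 ± 0.09) and the sterol-binding protein gene Osbpl1a (0.0634, -0.80 ± 0.08). Ptpn4 did not stay beside Cpe under GC and length offsets, where it was at 0.23 (adjusted p = 0.0481), below the median of 0.31 over all tested genes, and Cpe remained lower.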

How the data were processed

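Estimated counts per gene were deposited by the authors for 4 IP and 4 input libraries, not normalized. Salmon 0.14.1 and GRCm38.p6 are named in the submitters' processing notes; the annotation, any trimming and the strandedness of counting are not given in the sources here. Salmon divides shared reads by a model, so genes with overlaps or copies are less certain. Of each library 15.3% to 19.2% of values were not whole (tolerance 1e-06).

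Estimated counts were rounded, filtered with filterByExpr (minimum count 10), scaled by TMM and tested across all genes with edgeR 4.0.16 in R 4.3.3 (quasi-likelihood, no covariate), with Benjamini-Hochberg adjustment over 17000 genes at 0.05. The script was tested on simulated data. SE was taken as |log2 fold change| over the root of the F statistic. Ratios and shares were compared by 2-sided exact permutation tests, adjusted over 8 quantities. Alternatives were other scalings and filters, DESeq2 1.42.0, limma-voom (limma 3.58.1), a replicate block, GC and length offsets (splines with 4 degrees of freedom) and leaving out each library. Positions, lengths and GC content came from GENCODE M21 (GRCm38), which held 98.8% of the identifiers, and promoters from RefSeq. Groups and replicate numbers came from the titles, and a library pools 3 mice; whether an IP and an input share a pool is not stated.

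The members and lists were chosen with earlier results of these data known. All members are named. Of each other list the rule names the 2 genes of smallest p in each direction, of the further granins and enzymes any gene, and for the members with the largest and smallest log2 fold change the 3 most similar genes. Markers of microglia (0 of 9 higher and 7 lower), vascular cells (0 of 8 and 3), tanycytes (0 of 6 and 3, or 1 higher with offsets or without IP replicate 4) and pituitary (0 of 6 tested and 3) were also counted.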

Additional observations from a re-analysis of the deposited data

Results flagged for a closer look

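In 2 of 36 groups of 4 values, 1 library lay far from the other 3 by Dixon's criterion at the 95% level, which chance alone passes in about 1 group of 20. Both were IP replicate 3. Pcsk1n stood at 806.9 CPM there, against 973 to 980 CPM in the other IP libraries. Chga stood at 37.29 CPM there, against 45.5 to 46.8 CPM. In the same library Pcsk2 was at 75.7 CPM, the highest of the 8 libraries, the AgRP marker sum was the lowest of the 4 IP libraries and the astrocyte, oligodendrocyte, vascular and pituitary sums were the highest. The part of these in the values of Pcsk1n, Chga and Pcsk2 was not tested.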

How the results depend on the processing

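The 10 genes were refitted under 18 alternatives, and of 180 values 174 kept their direction or stayed uncalled on the same side of the threshold. The others were 1 lost call (Scg3, upper quartile factors) and 5 gained calls (Pcsk2 and Chga without IP replicate 3, Chgb in 3 settings). Pcsk1n, Pcsk1, Pam, Scg2, Scg5 and Cpe kept their calls in all 18. The number of members called higher ran from 5 to 7, and that called lower was 1, or 2 without IP replicate 3 (1 to 2 over libraries left out). Over all tested genes calls were 4171 higher and 3545 lower (54.1% higher). With GC and length offsets they were 6464 and 2184 (74.7%), with the block added 6110 and 2323 (72.5%), and with upper quartile factors 3342 and 4384 (43.3%). The median of all tested genes was 0.31, 0.23 and -0.15 in these, so relative to it the 10 genes had a median of 0.32, 0.39 and 0.48, against 0.48 with TMM. Relative to it Chga stood at -0.06 with the offsets and at 0.19 with TMM. Genes whose sign changed under offsets, without and with the block, included Nrd1 (0.2612 and 0.2605), Atp6v1a (0.0034 and 0.0035) and Ptpn4 (0.2263 and 0.2347). Without the block all of these lay below the median of 0.31 over all tested genes. The member Pcsk2, not called in either fit, went from -0.2043 with TMM to 0.1615 with the offsets. Relative to the median it went from -0.19 to -0.14. The cause was not tested.

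Without 1 library the log2 difference of Scg5 to Pcsk2 ran from 0.7372 to 0.9703 and that of Chga to Chgb from -0.02055 to 0.1207. Settings added after seeing the data gave, with GC and length offsets, 0.9608 for Pcsk1n to Pcsk1, 0.4725 for Scg5 to Pcsk2 and -0.1967 for Chga to Chgb. For the set to pan-neuronal genes less Pcsk1n and Snap25 they gave 0.0593. With the replicate block the mean ratio differences equal the unpaired ones by arithmetic: 1.389 for Pcsk1 to Pcsk2, 1.438 for Pcsk1n to Pcsk1, 0.8607 for Scg5 to Pcsk2, 0.5791 for Scg2 to Chgb, -1.565 for Cpe to Pam, 0.9199 for the set to pan-neuronal genes and 0.0985 percentage points for the share. Their exact p was 0.125 by construction, the smallest of 16 sign arrangements. Same-numbered IP and input libraries correlated at 0.0484 to 0.0836 in their deviations, each best with its own number. Differently numbered libraries correlated at -0.0379 to -0.0016. No label states a pairing and these correlations do not settle it, so the main tests were unpaired. If the libraries are paired, the exact p of 0.0286 for ratios and shares does not hold and 0.125 is the smallest possible. The replicate block changed no member's call. Each member had at least 515 counts per library, whereas Cpxm2, at 0.851 CPM in input, lost its call in 10 of 17 settings.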
